A study of Mus musculus with 6 samples.

Results

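The genes described here are 10 members of the insulin-like growth factor (IGF) system: the ligands Igf1 and Igf2, the type 1 receptor Igf1r, the binding proteins Igfbp3, Igfbp4, Igfbp5, Igfbp6 and Igfbp7, and the receptor substrates Irs1 and Irs2. They were chosen by symbol, and all 10 were found among the 24940 genes of the deposited exon count table. Of these 10, 6 had enough counts to be tested, as did 11286 genes of the whole table. The RNA came from primary hepatic stellate cells, liver pericytes that store vitamin A, isolated from female wild-type C57BL/6JBomTac mice. The OCA+VIP group (3 libraries) received 10 µM obeticholic acid (OCA), a bile acid analogue and agonist of the bile acid receptor FXR, on day 2 of culture. The DMSO+VIP group (3 libraries) received the same volume of the vehicle DMSO at a dilution of 1 in 1000. Both groups were given vasoactive intestinal peptide (VIP, 500 nM), which acts through receptors coupled to cAMP, 3 h later and were lysed after 3 h more, so the comparison is of OCA with vehicle in cells that all saw VIP. Whether replicate libraries were made from different mice or dishes is not given, and each p-value therefore reflects only how far these 6 libraries vary, which may be technical.

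IGF1 and IGF2 are secreted peptides that bind the tyrosine kinase receptor IGF1R. The activated receptor phosphorylates the docking proteins IRS1 and IRS2, which recruit PI3 kinase and so activate AKT, while AKT keeps FOXO transcription factors out of the nucleus. The binding proteins IGFBP3 to IGFBP6 hold IGFs with high affinity in the extracellular space, and IGFBP7 is a related secreted protein that binds IGFs weakly. In the liver, hepatocytes are the main source of circulating IGF1, which growth hormone induces, whereas stellate cells are known to respond to IGFs and to secrete binding proteins.

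With OCA before VIP, RNA of the receptor gene Igf1r was 1.59-fold lower and that of Igfbp7 was 1.44-fold lower, and both passed the test. The call of Igf1r held in all 6 fits that left out a library, but that of Igfbp7 in only 2. Irs2, the more abundant of the receptor substrates, was at nearly the same level in both groups. Igfbp3 was 2.21-fold higher, with no overlap between the groups, but did not pass the test. Of the 6 members tested, 2 were called lower, 0 higher and 4 did not pass; over all 11286 tested genes 6.04% were called lower and 5.72% higher (quasi-likelihood F test of edgeR, p adjusted by Benjamini-Hochberg, threshold 0.05). Of the 6 log2 fold changes, 3 were positive and 3 negative. Their median of -0.23 (0.00105 over all tested genes) lies midway between Irs1 and Irs2, neither of which passed. Igf1, Igf2, Igfbp5 and Igfbp6 were at or near 0 in all 6 libraries and could not be tested.

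Total counts per library were 4.53e+06 to 9.95e+06 in OCA+VIP and 2.84e+06 to 4.57e+06 in DMSO+VIP. Levels are given as CPM, the count divided by the library total and multiplied by 1000000. Many low counts lay in steps of about 6, though not all, such as 9 counts of Igfbp4 in DMSO+VIP library 3. The sum of 3 such steps, or 18 counts over a group, is taken as what a count of 0 allows. It equals 0.887 CPM over OCA+VIP and 1.61 CPM over DMSO+VIP and covers counting error only. OCA+VIP library 2 was the deepest and the least stepped, with 65.4% of counts up to 30 lying within 0.5 of a multiple of 3, against 82.9% to 87.5% in the other 5 libraries. This share does not tell steps of 3 from steps of 6, and steps of 3 would lower both limits. As values are multiples of 0.5, many would meet it without any steps. All 12 stellate cell markers were tested, with a summed level of 776 to 910 CPM in OCA+VIP and 719 to 964 CPM in DMSO+VIP; 3 of them were called higher (Colec11, Ecm1 and Ngfr) and 2 lower (Hgf and Des). Of other cell types, the 18 hepatocyte markers summed to 313 to 491 CPM in OCA+VIP and 178 to 205 CPM in DMSO+VIP, with Cps1 and Tat at 0. Of the 13 that could be tested, 9 were called higher and Ass1 lower, while over all tested genes 5.72% were called higher and 6.04% lower. The sums of 8 lymphocyte markers (5.88 to 10.9 CPM in OCA+VIP, 0 to 1.31 CPM in DMSO+VIP; Cd79a called higher) and of 5 cholangiocyte markers (17.3 to 21.0 CPM in OCA+VIP, 6.16 to 14.9 CPM in DMSO+VIP; 0 called) did not overlap either. In bulk RNA, fewer cells of a type and less RNA per cell cannot be told apart.

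Per length of exon (CPM per kb), Igfbp7 was the most abundant member in both groups, followed by Irs2 and then Igf1r. Igfbp7 averaged 294 ± 61.3 CPM per kb in OCA+VIP and 420 ± 41.3 CPM per kb in DMSO+VIP (SD, n = 3), which placed it at rank 148 of all 24940 genes in OCA+VIP and at rank 81 in DMSO+VIP. Irs2 averaged 89.0 ± 7.42 CPM per kb in OCA+VIP and 87.3 ± 6.21 CPM per kb in DMSO+VIP. These 3 members stood apart from each other in every library of both groups. Igf1r, at 8.30 ± 1.75 CPM per kb, overlapped Igfbp3 in OCA+VIP, whereas in DMSO+VIP its 13.1 ± 0.706 CPM per kb lay above Igfbp4, the next member. Igfbp3 and Igfbp4 overlapped each other in both groups. Irs1 came sixth in both, at 0.773 ± 0.219 CPM per kb in OCA+VIP and 1.05 ± 0.420 CPM per kb in DMSO+VIP. It lay below Igfbp4 in every OCA+VIP library and overlapped Igfbp3, the member above it, in DMSO+VIP.

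**Figure D1:**
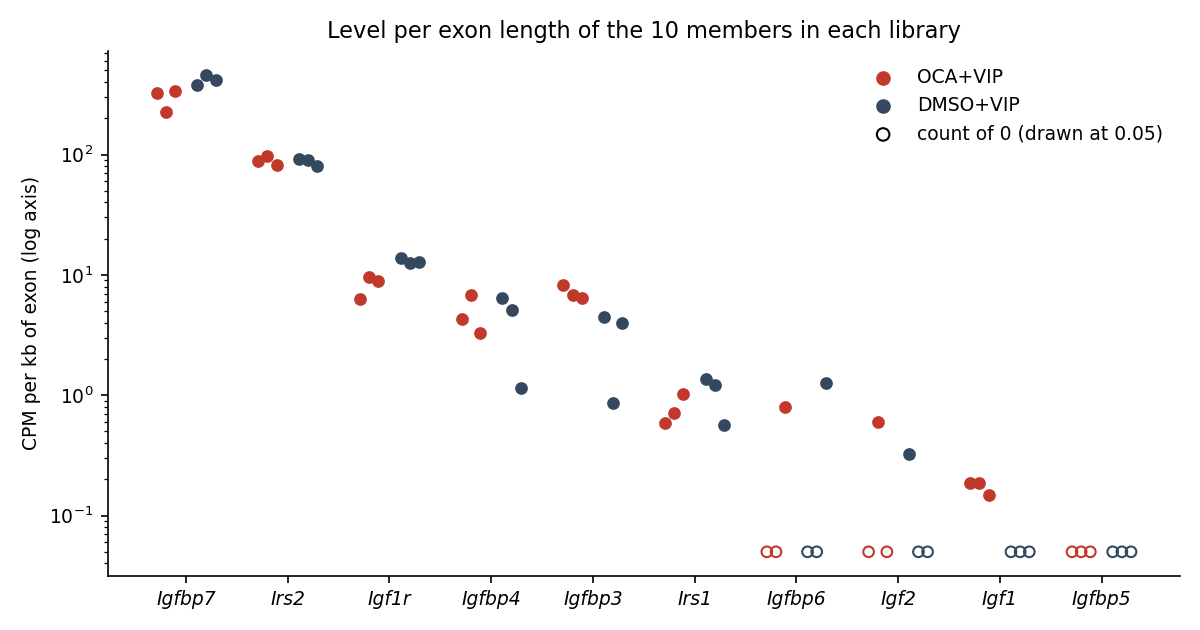
Level per exon length (CPM per kb, log axis) of the 10 members, 1 point per library, with OCA+VIP in red left of DMSO+VIP in blue and counts of 0 as open circles at 0.05. Igfbp7 lies above Irs2, and Irs2 above Igf1r, in every library, and Igfbp5 has a count of 0 in all 6.

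Of the ligands, Igf1 (chromosome 10, 87861111 to 87937047, mm10) had 6, 13 and 6 counts in OCA+VIP libraries 1 to 3 and 0 in each DMSO+VIP library. Its level over the OCA+VIP group was 1.23 CPM, under the 1.61 CPM that a count of 0 allows in DMSO+VIP, so no fold is given. In the same libraries the summed hepatocyte markers were also higher in OCA+VIP (values above), and their part in the Igf1 counts was not tested. Igf2 (chromosome 7, 142650768 to 142658804) had 24 counts in OCA+VIP library 2, 6 in DMSO+VIP library 1 and 0 in the other 4 libraries. Gm49394, annotated as protein-coding and transcribed in the same direction, shares 62.8% of the exon bases of Igf2. Differences in either ligand were not detectable at this depth. When genes of any count were tested, the adjusted p was 0.25 for Igf1 and 0.88 for Igf2.

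The receptor gene Igf1r (chromosome 7, 67952257 to 68233667) had 75.5, 115 and 107 CPM in OCA+VIP libraries 1 to 3, against 166, 150 and 152 CPM in DMSO+VIP libraries 1 to 3. All 3 OCA+VIP libraries lay below all 3 DMSO+VIP libraries, and OCA+VIP library 1 was the lowest. The mean was 99.2 ± 21.0 CPM in OCA+VIP and 156 ± 8.44 CPM in DMSO+VIP (SD, n = 3), a log2 fold change of -0.67 (SE 0.14, 95% interval -0.96 to -0.38, edgeR adjusted p = 0.0025). The call held with any 1 of the 6 libraries left out, with log2 fold changes of -0.75 to -0.54 and adjusted p of 0.0011 to 0.024. Igf1r has a long transcript of 11955 exon bases. The 300 tested genes of over 9000 exon bases had a median log2 fold change of -0.08. The median of these long transcripts against the mean of the libraries was -0.11, 0.16 and -0.13 (log2) in OCA+VIP libraries 1 to 3 and 0.17, -0.02 and -0.04 in DMSO+VIP libraries 1 to 3. With each library's trend on exon length removed, the log2 fold change of Igf1r was -0.61 (edgeR adjusted p = 0.0015).

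Irs2 (chromosome 8, 10986964 to 11008430) had 355, 387 and 328 CPM in OCA+VIP libraries 1 to 3, against 366, 363 and 321 CPM in DMSO+VIP libraries 1 to 3. The groups overlapped, and library 3 was the lowest of each. The difference was 0.01 on the log2 scale (95% interval -0.24 to 0.26, edgeR adjusted p = 0.97), and its sign turned under upper-quartile scaling (-0.028) and without OCA+VIP library 1, OCA+VIP library 2 or DMSO+VIP library 3 (-0.021, -0.012 and -0.052). The interval does not reach the log2 fold change of Igf1r. Irs2 is known as a gene that both cAMP and FOXO factors induce in liver.

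Irs1 (chromosome 1, 82233105 to 82291439) was much less abundant than Irs2, with 5.40, 6.53 and 9.30 CPM in OCA+VIP libraries 1 to 3 and 12.5, 11.1 and 5.22 CPM in DMSO+VIP libraries 1 to 3. DMSO+VIP library 3 lay below all 3 OCA+VIP libraries, so the groups overlapped. It missed the threshold (log2 fold change -0.48, 95% interval -1.53 to 0.58, edgeR adjusted p = 0.61). Gm9747, a protein-coding model on the opposite strand, shares 30.9% of the exon bases of Irs1, and whether counting used strand is not given in the sources used here. Per length, Irs1 stood at 0.00666, 0.00739 and 0.0124 of Irs2 in OCA+VIP libraries 1 to 3 and at 0.0149, 0.0134 and 0.00711 in DMSO+VIP libraries 1 to 3, and these ratios overlapped too.

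The promoters of both substrates hold an E-box, the letters CACGTG bound by basic helix-loop-helix factors. These stretches are shown because both genes share this motif near their starts, while their levels differ. They are RefSeq sequence of GRCm38.p6, on the minus strand of chr1:82291532-82291571 (Irs1) and chr8:11008951-11008990 (Irs2), written 5′ to 3′ with the E-box in capitals.
Irs1: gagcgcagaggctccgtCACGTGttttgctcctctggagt
Irs2: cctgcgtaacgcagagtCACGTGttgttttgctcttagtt
The E-box begins at position -115 of Irs1 and -44 of Irs2, counted from the RefSeq start, which for Irs2 lies 499 bases upstream of the start of the transcript counted here. The cAMP response half-site TGACG was found once in the Irs1 promoter, on the opposite strand at -118, where it overlaps the E-box, and not in that of Irs2. Read on both strands, CACGTG occurs in 7.15% and TGACG in 20.8% of 32851 promoters of 300 bases.

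Among the binding proteins, Igfbp7 (chromosome 5, 77349240 to 77408045) had 361, 249 and 373 CPM in OCA+VIP libraries 1 to 3, against 422, 514 and 468 CPM in DMSO+VIP libraries 1 to 3. The groups did not overlap, and OCA+VIP library 2 was the lowest. The mean was 327 ± 68.2 CPM in OCA+VIP and 468 ± 46.0 CPM in DMSO+VIP, a log2 fold change of -0.52 (SE 0.15, 95% interval -0.84 to -0.20, edgeR adjusted p = 0.029). Leaving out OCA+VIP library 3 ended the call (edgeR adjusted p = 0.052), as did leaving out DMSO+VIP library 1, 2 or 3 (0.053, 0.13 and 0.089). Without OCA+VIP library 2 the log2 fold change was -0.33 and the adjusted p 0.041, and with the library number as a replicate block the adjusted p was 0.058. Igfbp7 has a short transcript of 1113 exon bases, and the tested genes of 1000 to 1500 exon bases had a median log2 fold change of 0.01. For the 772 shorter ones, of up to 1000 exon bases, the median was -0.16. Against the mean of the libraries, the median of these shorter genes was 0.02, -0.20 and 0.05 (log2) in OCA+VIP libraries 1 to 3 and -0.01, 0.18 and 0.14 in DMSO+VIP libraries 1 to 3, lowest and highest in the libraries where Igfbp7 was lowest and highest. In the class of Igfbp7 itself the median was 0.06, -0.06 and 0.07 in OCA+VIP and -0.03, 0.04 and 0.04 in DMSO+VIP. There it was lowest in OCA+VIP library 2 and highest in OCA+VIP library 3. What lies behind the likeness to the shorter genes was not tested. With the trend on exon length removed its log2 fold change was -0.48 (edgeR adjusted p = 0.017). Polr2b on the opposite strand shares 7.03% of the exon bases of Igfbp7.

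IGFBP7 is also a product of endothelial cells. Of 11 markers of the sinusoidal endothelium, 4 could be tested and Egfl7 was called lower, with a mean of 10.8 CPM in OCA+VIP and 25.5 CPM in DMSO+VIP (log2 fold change -1.25, edgeR adjusted p = 0.012). The other 3, Pecam1, Stab1 and Tek, did not pass, with log2 fold changes above 0 (1.89, 0.46 and 0.73). The sum of the 11 was 18.7 to 34.2 CPM in OCA+VIP and 23.0 to 39.8 CPM in DMSO+VIP, with Lyve1 at 0. The part of endothelial cells in the fall of Igfbp7 was not tested. Of the 8 markers of activated stellate cells, 5 were called lower and 0 higher (6.04% and 5.72% over all tested genes). Col1a2, Col3a1 and Timp1 did not pass, with log2 fold changes of -0.34, 1.49 and -0.08. The 8 summed to 494 to 622 CPM in OCA+VIP and 936 to 1003 CPM in DMSO+VIP. The part of activated stellate cells in the falls of Igf1r and Igfbp7 was not tested either.

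Igfbp3 (chromosome 11, 7206091 to 7213923), encoding the main carrier of IGFs in serum, had 20.0, 16.6 and 15.5 CPM in OCA+VIP libraries 1 to 3, against 10.8, 2.11 and 9.64 CPM in DMSO+VIP libraries 1 to 3. The groups did not overlap, as was the case for 16.8% of tested genes in this direction and 13.9% in the other. DMSO+VIP library 2 stood lowest, with 6 counts, the size of a single step. The log2 fold change was 1.15 (SE 0.44, 95% interval 0.23 to 2.06) and did not pass the test (edgeR adjusted p = 0.099). It passed with DESeq2 (adjusted p = 0.036) and when genes of any count were tested (0.045). Without DMSO+VIP library 2 the log2 fold change was 0.74 (adjusted p = 0.24).

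Igfbp4 (chromosome 11, 99041244 to 99052655), encoding an IGF binding protein known mainly as an inhibitor of IGF action, had 9.04, 14.3 and 6.80 CPM in OCA+VIP libraries 1 to 3 and 13.4, 10.6 and 2.41 CPM in DMSO+VIP libraries 1 to 3. The groups overlapped (log2 fold change 0.17, 95% interval -0.92 to 1.25, edgeR adjusted p = 0.88), and the sign turned without OCA+VIP library 2 (-0.13) or DMSO+VIP library 3 (-0.28). Igfbp5 (chromosome 1, 72858065 to 72874865) had a count of 0 in all 6 libraries. Igfbp6 (chromosome 15, 102144186 to 102149512), whose product prefers IGF2, had 6 counts in OCA+VIP library 3, 6 in DMSO+VIP library 3 and 0 elsewhere. Both are under the level that a count of 0 allows in each group.

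**Figure D2:**
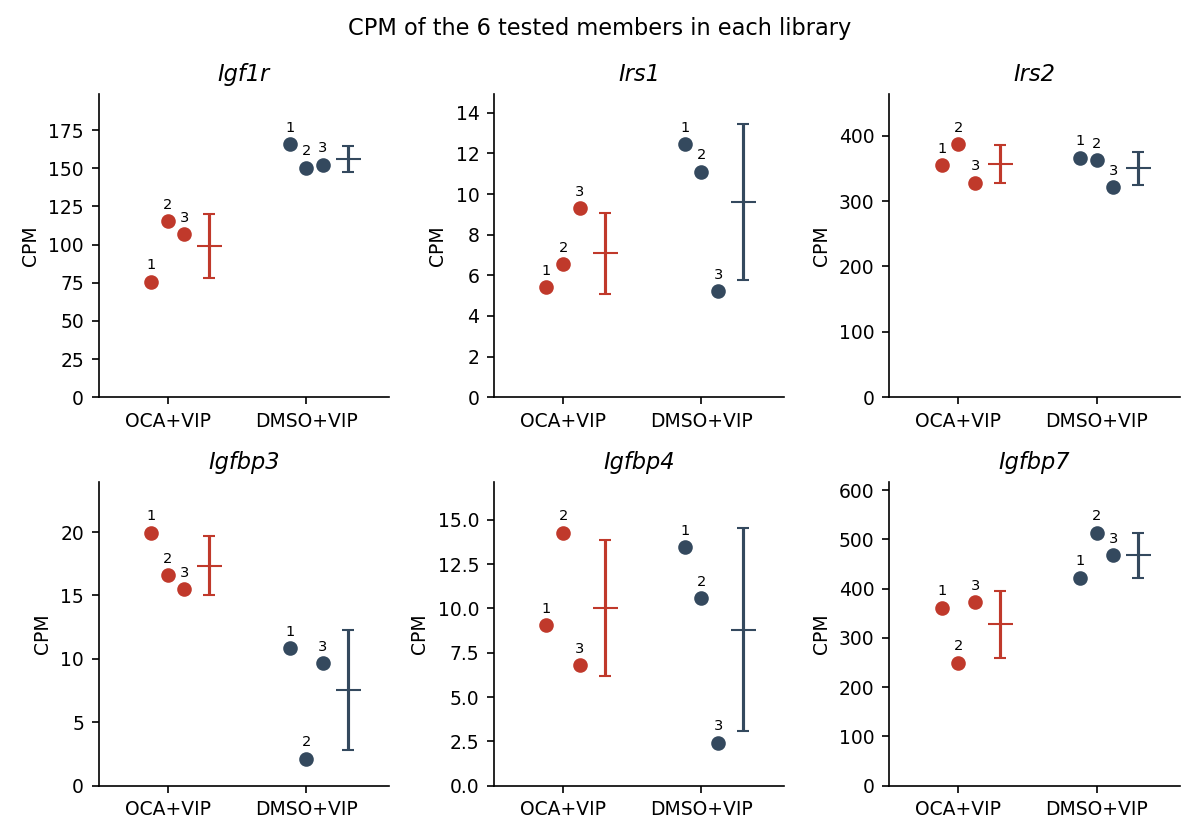
CPM of the 6 tested members, 1 panel each, with 1 numbered point per library and the mean ± SD (n = 3) beside them, OCA+VIP left of DMSO+VIP. The groups are apart for Igf1r, Igfbp7 and Igfbp3 and overlap for Irs1, Irs2 and Igfbp4.

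**Figure D3:**
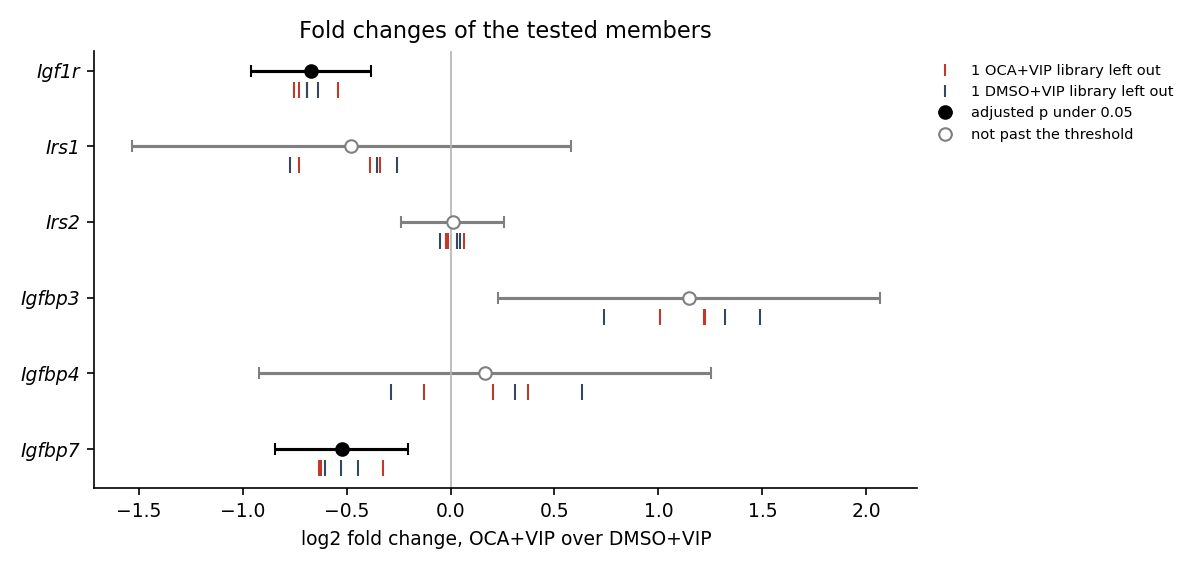
Log2 fold change of each tested member (OCA+VIP over DMSO+VIP) with its 95% interval, derived from the edgeR F test. Points are filled where the adjusted p is under 0.05, and ticks below give the value with 1 library left out. Igf1r and Igfbp7 stay below 0 in every tick, Igfbp3 stays above 0, and the ticks of Irs2 and Igfbp4 fall on both sides.

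The promoters of Igf1r and Igfbp7 are printed here because both genes were called lower. The promoter of Igf1r had 76.0% G and C and 48 CpG, and that of Igfbp7 73.3% and 33 CpG, while the median of all 32851 promoters was 52.7% and 7 CpG. The 4 tested members that were not called were alike in this, with 71.3% to 72.0% G and C and 27 to 41 CpG. Both are 300 bases of RefSeq sequence (GRCm38.p6) from 250 before to 50 after the start, Igf1r from the plus strand of chr7:67952007-67952306 and Igfbp7 from the minus strand of chr5:77407996-77408295. Capitals mark the GC box GGGCGG and the nuclear receptor half-site AGGTCA, read on both strands.
Igf1r: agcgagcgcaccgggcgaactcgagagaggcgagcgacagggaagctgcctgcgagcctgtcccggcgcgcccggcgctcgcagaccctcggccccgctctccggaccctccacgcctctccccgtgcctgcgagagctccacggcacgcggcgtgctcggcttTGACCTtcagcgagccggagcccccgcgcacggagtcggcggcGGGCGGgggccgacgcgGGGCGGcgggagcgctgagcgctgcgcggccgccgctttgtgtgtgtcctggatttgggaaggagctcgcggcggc
Igfbp7: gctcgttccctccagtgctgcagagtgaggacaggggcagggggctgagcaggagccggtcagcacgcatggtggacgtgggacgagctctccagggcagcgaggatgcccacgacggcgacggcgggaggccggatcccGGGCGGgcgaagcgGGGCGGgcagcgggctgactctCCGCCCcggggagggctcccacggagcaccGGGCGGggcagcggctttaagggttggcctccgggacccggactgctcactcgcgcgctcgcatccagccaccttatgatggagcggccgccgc
The GC box occurs 2 times in Igf1r, at -43 and -26, and 4 times in Igfbp7, at -110, -96, -74 and -44, and it is found in 35.7% of all promoters. The half-site AGGTCA occurs once in Igf1r, at -86 on the opposite strand, and not in Igfbp7, and in 16.3% of all promoters. The E-box, the cAMP response half-site and the FOXO core, GTAAACA, which is in 3.65% of all promoters, are in neither. The inverted repeat AGGTCANTGACCT, the form of site known for FXR, is in 3 of the 32851 promoters and in none of the 13 promoters listed for the 10 members.

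Across the 6 libraries and among 9033 tested genes with a mean of at least 10 CPM, the genes whose log2 CPM ran closest to Igf1r were Sgsm2, 1810009A15Rik and Alg3 (Pearson r of 0.999, 0.998 and 0.995). Those closest to Igfbp7 included Selenof and Sem1 (r of 0.999 each). Igf1r and Igfbp7 followed each other less closely (r of 0.52): the lowest Igf1r was in OCA+VIP library 1 and the lowest Igfbp7 in OCA+VIP library 2. With 6 points that share the split into 2 groups, these values describe the libraries and carry no p.

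Of 10 further genes for ligands, receptors and IGF2 mRNA-binding proteins, 5 could be tested. Of these 5, 2 fell (Ghr and Lrp1), 0 rose and 3 did not pass, and the median of their log2 fold changes was -0.17. The shares called in the whole set of 11286 tested genes were 6.04% lower and 5.72% higher, and the median there was 0.00105. Ghr, the growth hormone receptor (chromosome 15, 3317755 to 3583352), had 44.0, 70.9 and 69.3 CPM in OCA+VIP libraries 1 to 3, against 110, 108 and 108 CPM in DMSO+VIP libraries 1 to 3. The groups did not overlap (log2 fold change -0.84, SE 0.16, edgeR adjusted p = 0.0012). Lrp1, a large endocytic receptor with many ligands (chromosome 10, 127538158 to 127621148), had 77.2, 115 and 79.2 CPM in OCA+VIP and 348, 187 and 193 CPM in DMSO+VIP. It was 2.72-fold lower (edgeR adjusted p = 1.6e-05), and DMSO+VIP library 1 stood far above the other 2. Both calls held with any 1 library left out. The insulin receptor gene Insr and Igf2r, which encodes the receptor that clears IGF2, did not pass, with log2 fold changes of -0.04 and -0.17 (edgeR adjusted p = 0.95 and 0.56). The insulin genes Ins1 and Ins2 and the receptor gene Insrr had a count of 0 in all libraries.

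Of 16 genes for other carriers and for secreted proteases and their inhibitors, 6 could be tested, of which Adamts1 and Mmp2 fell, 0 rose and 4 did not pass (median log2 fold change -0.99). Over all tested genes, 6.04% were called lower and 5.72% higher. The metalloprotease gene Adamts1 (chromosome 16, 85793828 to 85803113) averaged 929 ± 63.5 CPM in OCA+VIP and 2178 ± 64.2 CPM in DMSO+VIP (log2 fold change -1.25). The gelatinase gene Mmp2 (chromosome 8, 92827297 to 92853421) had 16.8, 17.3 and 8.96 CPM in OCA+VIP, against 31.6, 31.7 and 26.1 CPM in DMSO+VIP (log2 fold change -1.07, edgeR adjusted p = 0.019). The call of Mmp2 was lost on leaving out OCA+VIP library 3 or library 1 or 2 of DMSO+VIP (adjusted p = 0.10, 0.071 and 0.056). Pappa, encoding the protease that cleaves IGFBP4, the serum carrier genes Igfals and Igfbp1, Igfbpl1 and Adam28 had a count of 0 in all 6 libraries. Igfbp2, a hepatocyte product, had 14 counts over the OCA+VIP libraries and 0 over the DMSO+VIP libraries, under the 18 counts that a count of 0 allows.

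Of 21 genes for adaptors and brakes of receptor signalling, 18 could be tested, of which 3 fell (Grb10, Nedd4 and Trib3), 2 rose (Trib1 and Shc1) and 13 did not pass, with a median log2 fold change of 0.30. Calls over all tested genes were 6.04% lower and 5.72% higher. Grb10 encodes an adaptor that binds the activated IGF1 and insulin receptors and dampens their signal (chromosome 11, 11930499 to 12037420). It had 68.6, 103 and 79.8 CPM in OCA+VIP libraries 1 to 3, against 192, 152 and 141 CPM in DMSO+VIP libraries 1 to 3. The groups did not overlap (log2 fold change -0.97, SE 0.15, edgeR adjusted p = 0.00013). Nedd4 encodes a ubiquitin ligase that works with GRB10 on the IGF1 receptor (chromosome 9, 72662331 to 72749850). It had 241, 356 and 296 CPM in OCA+VIP and 470, 471 and 432 CPM in DMSO+VIP (log2 fold change -0.64, SE 0.13, edgeR adjusted p = 0.0018). Both calls, and those of Trib3 and Trib1, held with any 1 library left out. Igf1r, Grb10 and Nedd4 were each lower in every OCA+VIP library than in any DMSO+VIP library. Among the tested adaptors and brakes, 7 lay higher without overlap and 3 lower, beside 16.8% and 13.9% of all tested genes.

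Of the 3 pseudokinase genes of the Tribbles family in this list, 1 fell, 1 rose and Trib2 did not pass (log2 fold change 0.07, edgeR adjusted p = 0.93). Trib3, whose product binds AKT and which cell stress induces, had 25.6, 76.2 and 43.3 CPM in OCA+VIP, against 146, 151 and 151 CPM in DMSO+VIP, and was 3.09-fold lower (edgeR adjusted p = 2.7e-05). Trib1, a regulator of protein turnover, was 1.72-fold higher (edgeR adjusted p = 0.00017) and averaged 291 ± 0.430 CPM in OCA+VIP and 167 ± 20.3 CPM in DMSO+VIP. Shc1, the adaptor that leads from the receptor to the RAS pathway, averaged 217 ± 10.9 CPM in OCA+VIP and 165 ± 4.22 CPM in DMSO+VIP (log2 fold change 0.38, edgeR adjusted p = 0.041). Shc1 stayed called only without OCA+VIP library 2; it missed the threshold in the other 5 fits that left out a library (edgeR adjusted p of 0.091 to 0.17), under upper-quartile scaling (0.065) and with the replicate block (0.084).

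Of 27 genes of the PI3K-AKT-mTOR pathway, 26 could be tested, of which 1 rose (Pik3cb), 2 fell (Ddit4 and Eif4ebp1) and 23 did not pass (median log2 fold change 0.12). These counts stand beside 5.72% called higher and 6.04% lower over all tested genes. Pik3cb, the beta catalytic subunit of PI3 kinase (chromosome 9, 99038402 to 99140211), averaged 48.8 ± 0.751 CPM in OCA+VIP and 26.2 ± 3.87 CPM in DMSO+VIP, with no overlap (log2 fold change 0.88, edgeR adjusted p = 0.0071). Ddit4, a stress-induced inhibitor of mTOR complex 1 (chromosome 10, 59949675 to 59951770), had 108, 124 and 138 CPM in OCA+VIP and 237, 211 and 234 CPM in DMSO+VIP. It was 1.86-fold lower (edgeR adjusted p = 3.5e-05). Eif4ebp1, a repressor of translation that mTOR inactivates, averaged 73.0 ± 11.2 CPM in OCA+VIP and 103 ± 10.4 CPM in DMSO+VIP (edgeR adjusted p = 0.038). Eif4ebp1 stayed called only without OCA+VIP library 1; it missed the threshold in the other 5 fits that left out a library (edgeR adjusted p of 0.056 to 0.18) and with the replicate block (0.055). The kinase genes Akt1 and Akt2 did not pass, with log2 fold changes of 0.27 and 0.13 (edgeR adjusted p = 0.18 and 0.57).

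Of 20 genes for FOXO factors and genes that they are known to induce, 17 could be tested, of which 5 rose (Foxo3, Pdk4, Bcl2l11, Sod2 and Txnip), 1 fell (Gadd45a) and 11 did not pass. The median log2 fold change was 0.04, and over all tested genes 5.72% were called higher and 6.04% lower. Foxo3, a transcription factor that AKT inhibits (chromosome 10, 42185786 to 42276742), had 147, 136 and 140 CPM in OCA+VIP, against 101, 84.5 and 103 CPM in DMSO+VIP (log2 fold change 0.53, edgeR adjusted p = 0.011). Pdk4, a kinase that restrains pyruvate oxidation (chromosome 6, 5483351 to 5496278), had 46.8, 41.4 and 37.8 CPM in OCA+VIP, against 23.7, 14.4 and 10.7 CPM in DMSO+VIP (log2 fold change 1.34, edgeR adjusted p = 0.0020). Gadd45a, which stress and p53 also induce, averaged 203 ± 13.1 CPM in OCA+VIP and 434 ± 42.2 CPM in DMSO+VIP, 2.17-fold lower (edgeR adjusted p = 3.6e-06). The calls of Pdk4 and Gadd45a held with any 1 library left out.

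Bcl2l11, which encodes the apoptosis inducer BIM, Sod2, the mitochondrial superoxide dismutase, and Txnip, an inhibitor of glucose uptake, had log2 fold changes of 0.81, 0.48 and 0.48. The call of Bcl2l11 was lost on leaving out any 1 of the 6 libraries (edgeR adjusted p of 0.057 to 0.17), with limma-voom (0.062) and with the replicate block (0.055). Those of Sod2 and Txnip were each lost without any 1 of 3 libraries (up to 0.10 and 0.097), and that of Foxo3 without OCA+VIP library 1 or DMSO+VIP library 2 (0.067 and 0.055). The number of list members that rose was 1 with OCA+VIP library 1 left out, 2 with DMSO+VIP library 2 left out, and 3 with library 3 of either group left out. An antisense gene, Gm15441, shares 19.4% of the exon bases of Txnip, and a noncoding gene on the opposite strand, E230016M11Rik, shares 19.1% of those of Gadd45a. The other genes of the list include the FOXO factor gene Foxo1 and the cell cycle inhibitor gene Cdkn1b, with log2 fold changes of 0.13 and -0.22 that did not pass.

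**Figure D4:**
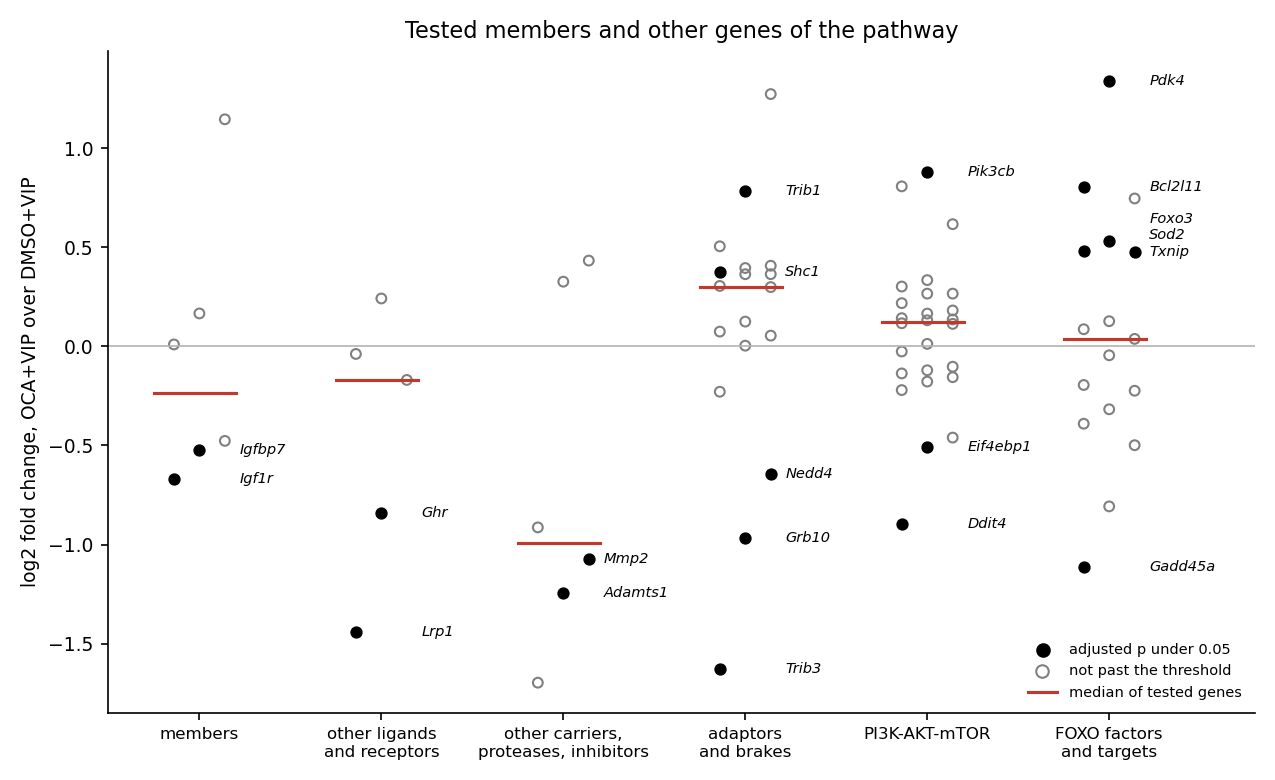
Log2 fold change (OCA+VIP over DMSO+VIP) of the tested members and of the tested genes of 5 lists of other pathway genes, filled and named where the edgeR adjusted p is under 0.05, with the median of each list as a red line. Called genes lie on both sides of 0 among adaptors and brakes, PI3K-AKT-mTOR genes and FOXO factors and targets, and below 0 among the members and the first 2 lists.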

How the data were processed

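Polyadenylated RNA of 6 samples was sequenced after library construction with the NEBNext Ultra RNA kit, per the labels' protocols. What the authors deposited is a single table covering 24940 genes, which lists a RefSeq transcript, an exon length and a copy number for each. Its values are expected counts over exons, without depth normalization per the file headers, and all are multiples of 0.5. The submitters' processing notes name mm10, STAR, HOMER and DESeq2. Strand use and duplicate removal are not given in the sources used here. Column names give the group, while the sample titles carry letters that could not be tied to the column numbers.

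Rounded values went into edgeR (4.0.16, under R 4.3.3; TMM, filterByExpr with minimum count 10 and total 15, quasi-likelihood F test, Benjamini-Hochberg over 11286 genes, threshold 0.05, two-sided, 4 residual degrees of freedom). CPM used column totals without TMM. The analysis was tested on simulated counts. These had no steps at low counts and held larger changes than those of Igf1r and Igfbp7, so neither trait was covered. Alternatives were other scalings and filters, DESeq2 1.42.0, limma-voom (limma 3.58.1), a replicate block, counts divided by 6 and leaving out each library. Removal of an exon length trend was chosen after the data were seen. The members, the 5 lists of other genes and the tests were chosen with earlier results of these data known. The text names all members and, from each list, each gene past the threshold with a mean of at least 1 CPM; others are named as background, chosen after their values were seen, and a few genes are not reported here. Exon overlaps came from GENCODE vM21 (GRCm38), and all 28 genes named by this rule were found there. Promoters came from the RefSeq table (GRCm38.p6), which matched all 10 members. Tables and plots were made with pandas 2.3.3, numpy 2.4.6 and matplotlib 3.10.9 under Python 3.11.15.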

Additional observations from a re-analysis of the deposited data

How the results depend on the processing

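The 1328 genes called were 2245 with DESeq2 and 737 to 1478 when 1 library was left out. The lowest counts were 737 (OCA+VIP library 1 left out), 751 (OCA+VIP library 3) and 877 (DMSO+VIP library 1). The 2 members called, Igf1r and Igfbp7, became 1 (Igf1r) with the replicate block, and 1 to 2 when 1 library was left out. The block lowered the calls over all genes to 1118. Deviations of same-numbered libraries from their group means correlated at -0.04, -0.05 and 0.03, and 2 of 6 libraries correlated best with their own number. With so few libraries, these values cannot show whether same-numbered libraries were paired, and the column names do not say. Of 238 values of the 24 named genes under other settings, 229 kept their sign and their side of the threshold, 6 were no longer past it, 2 came to pass it (Igfbp3) and 1 reversed. The reversal was that of Irs2 under upper-quartile scaling (-0.028). Of 144 values with 1 library left out, 108 kept sign and side, 31 no longer passed and 5 reversed. The 5 were values of Irs2 (-0.052 to 0.066 over the 6 fits) and Igfbp4 (-0.28 to 0.63), neither called. The causes were not tested. With counts divided by 6, Igfbp4 and Irs1 had too few counts to be tested. Depth limits Igf1, Igf2, Igfbp5 and Igfbp6, which no fold change describes.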

Other observations

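Ratios of 2 genes within a library do not depend on the scaling between libraries. A library's trend on exon length was not removed from them, and the transcripts differ in length. Igfbp3 has 2435 exon bases and Igfbp7 1113, while Igf1r has 11955 and Irs2 4009. Per exon length, Igfbp3 stood at 0.0253, 0.0304 and 0.0190 of Igfbp7 in OCA+VIP libraries 1 to 3, against 0.0117, 0.00188 and 0.00942 in DMSO+VIP libraries 1 to 3, with no overlap between the groups. The value of DMSO+VIP library 2 rests on 6 counts of Igfbp3. Igf1r stood at 0.0713, 0.100 and 0.109 of Irs2 in OCA+VIP libraries 1 to 3, against 0.152, 0.139 and 0.159 in DMSO+VIP libraries 1 to 3, again with no overlap. The ratio of Igf1r to the insulin receptor gene Insr was 1.55, 1.78 and 2.31 in OCA+VIP libraries 1 to 3 and 2.59, 5.41 and 2.21 in DMSO+VIP libraries 1 to 3, and the groups overlapped. The ratios of Igfbp4 to Igfbp7, Igfbp7 to Igf1r and Igf2r to Igf1r also overlapped between the groups. All these ratios were chosen after the values were seen and were not tested.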
